A study of Mus musculus with 4 samples.

Results

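A set of 7 leukocyte miRNAs was followed in mouse skin as markers of the blood-derived cells that a tissue sample can hold. They were chosen by name from the spot table (mmu-miR-142-3p, mmu-miR-142-5p, mmu-miR-223, mmu-miR-150, mmu-miR-155, mmu-miR-342-3p and mmu-miR-342-5p, written without mmu from here on) and make up 7 of the 710 miRNAs on the array. Abdominal skin of female C57BL/6JNarl mice, 6 to 8 weeks old, received 100 μl of acetone alone, the solvent control, or of acetone with 10 μg/μl shikonin, a naphthoquinone pigment from the root of Lithospermum erythrorhizon. Total RNA was taken at 24 hr and run on 4 arrays (febit Geniom biochip), 2 for each treatment. Apart from the agent, the groups share strain, sex, skin site, solvent and time. In the paper both arrays of a treatment are described as biological sample replicates, without a number of mice for each. The p-values reflect the spread between these RNA samples, which limma, the test of single miRNAs, moderates by the spread over all miRNAs tested. Part of the spread may be technical.

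MicroRNAs are short RNAs that guide repressor complexes to mRNAs, mainly through pairing of the seed, the bases near the 5′ end. Several are made almost only by cells of the blood lineage and therefore mark leukocytes in a mixed tissue. The hairpin of miR-142 is transcribed throughout the blood lineage, miR-223 is typical of neutrophils and monocytes and restrains granulocyte activation, miR-150 is abundant in mature B and T lymphocytes and represses Myb, miR-155 is induced when lymphocytes and macrophages are activated, and miR-342 lies within Evl, a gene of an actin regulator that lymphocytes express. Skin normally contains resident T cells, macrophages, mast cells and dendritic cells, and an irritant can bring in neutrophils and monocytes. The question put to the arrays was whether myeloid, lymphoid and general leukocyte miRNAs differed between shikonin-treated and acetone-treated skin.

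Of the 7 members, 6 were matched to the mature mouse sequences of RefSeq (GRCm38.p6). The array uses older names, so both arms of miR-142 stand as arms of miR-142a in that table, miR-223 as miR-223-3p and miR-155 as miR-155-5p. The sequences are shown because each probe is the reverse complement of one of them and because they show that the members are separate targets. They are written 5′ to 3′ with the seed (bases 2 to 8) in capitals, on the plus strand of chromosome 11, 11, X, 12, 12 and 16 in this order.
miR-142-5p: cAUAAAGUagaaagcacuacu
miR-142-3p: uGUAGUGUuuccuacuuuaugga
miR-223: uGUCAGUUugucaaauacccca
miR-342-3p: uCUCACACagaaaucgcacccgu
miR-342-5p: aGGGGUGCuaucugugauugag
miR-155: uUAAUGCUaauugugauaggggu
The 6 seeds all differ, and none is shared with another of the 1679 mature mouse miRNAs in the table. The arms of miR-142 had 33.3% (5p) and 34.8% (3p) G and C, miR-155 had 34.8% and miR-223 had 40.9%, all under the median of 52.2% over the table, while miR-342-5p and miR-342-3p lay near it. miR-155 lies within the non-coding gene Mir155hg, miR-223 within F630028O10Rik and miR-342 within Evl.

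A pair of members comes from 1 hairpin each in the cases of miR-142 and miR-342, so the arms share their transcript. The hairpins are shown with both arms in capitals, the 5p arm first. Mir142 spans chromosome 11, 87756864 to 87756927, and Mir342 chromosome 12, 108658620 to 108658718, both on the plus strand of GRCm38.p6.
Mir142: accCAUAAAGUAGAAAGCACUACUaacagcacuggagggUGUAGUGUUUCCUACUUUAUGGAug
Mir342: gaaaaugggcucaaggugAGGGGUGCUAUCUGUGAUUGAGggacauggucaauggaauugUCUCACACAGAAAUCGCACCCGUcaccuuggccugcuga

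Each array carried 8 spots per miRNA, and values are linear spot intensities with no background subtracted. The background of an array was the median of 38 miRNAs typical of brain, liver, pancreas, heart, embryonic stem cells and testis, and to be called above background a miRNA needed a median spot more than 3 median absolute deviations (scaled to an SD) over this level. By this rule 196 to 242 miRNAs were above background on an array, 153 on all 4 and 417 on none. The labelled tissue was borne out by its markers, since the epidermal miR-203 and miR-205, the fibroblast miR-199a-3p and miR-214 and the muscle miR-1 and miR-133a were above background on all 4 arrays. Shikonin replicate 2 stood apart by position: in the first eighth of the rows of its spot table the median intensity was 972, against 408 to 552 in the other eighths, while the first eighth of the other 3 arrays lay at 416 to 424. With 4 arrays, precision is limited throughout.

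The members differed widely in signal. miR-223 was by far the brightest relative to background, miR-342-3p and miR-142-5p were also above background on all 4 arrays, miR-150 only on the 2 acetone arrays and miR-342-5p only on shikonin replicate 2, and miR-142-3p and miR-155 on none. None of the 7 passed the test between shikonin-treated and acetone-treated skin (limma, Benjamini-Hochberg over all 710 miRNAs, threshold 0.05), against 2 of all miRNAs (0.282%). At an unadjusted p under 0.05, 1 of the 7 was found, miR-150, against 17.6% of all miRNAs. In whole skin, fewer cells of a type and less RNA per cell cannot be told apart. Intensities that include background understate the change of dim miRNAs.

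**Figure D1:**
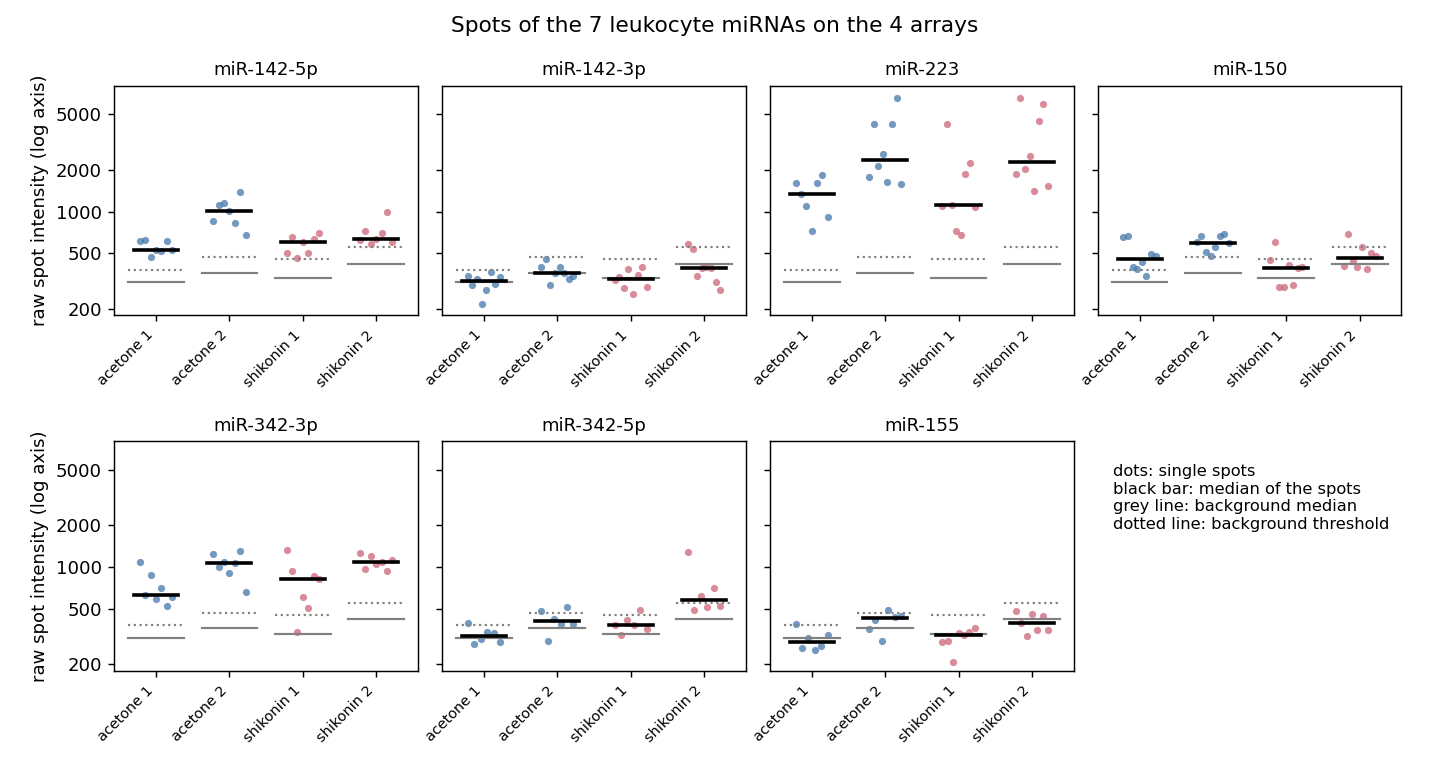
Raw intensity (log axis) of every measured spot of the 7 leukocyte miRNAs on the 2 acetone (blue) and 2 shikonin (red) arrays, with the median of the spots (black), the background median of the array (grey) and its threshold (dotted). miR-223 lies far above background on every array, with medians from 1108 to 2361, whereas the spots of miR-142-3p and miR-155 scatter around the background line.

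The pan-leukocyte hairpin miR-142 gave signal from 1 arm. For miR-142-5p, the median spot was 528 and 1008 with acetone alone and 600 and 632 with shikonin, which is 1.70 and 2.77 times the background of the array in acetone-treated and 1.81 and 1.498 times in shikonin-treated skin. Acetone replicate 2 was the high array, and the groups overlapped. After quantile normalization the log2 intensity was 9.37 and 9.70 in acetone-treated and 9.38 and 9.14 in shikonin-treated skin, with means of 9.54 ± 0.24 and 9.26 ± 0.17 (SD, n = 2 each). The difference, shikonin minus acetone, was -0.28 (log2, SE 0.17, 95% interval -0.74 to 0.19, limma adjusted p = 0.503), which lies within the spread between replicates. Spot by spot, 6 of the 7 rows of the table measured on all 4 arrays had a lower mean on the shikonin arrays, before normalization. In 0 of the 7 rows did both shikonin arrays lie below both acetone arrays.

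The 3p arm of the same hairpin stayed at background. The median spot of miR-142-3p was 316 and 360 with acetone alone and 328 and 392 with shikonin, between 0.929 and 1.02 times background. Of 8 spots on each array, 1 exceeded the threshold on shikonin replicate 2 and 0 on the other arrays. A level or a change of this arm was not detectable here (measured difference -0.049 on the log2 scale, SE 0.086, limma adjusted p = 0.847). The intensities of the 2 arms come from different probes and are not set against each other.

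miR-223, the myeloid marker, was the member with the largest positive difference after normalization and also the one whose replicates lay farthest apart. Its median spot was 1344 and 2361 with acetone alone and 1108 and 2261 with shikonin. On this raw scale replicate 2 was about as bright in both groups, replicate 1 was dimmer in both, and the groups overlapped. Relative to the background of its array, miR-223 stood at 4.34 and 6.49 times in acetone-treated and at 3.34 and 5.36 times in shikonin-treated skin.

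After quantile normalization miR-223 was at 10.52 and 10.72 (log2) with acetone alone and at 10.40 and 11.62 with shikonin, so that 1 shikonin array lay below and 1 above both controls. Its rank by brightness was 59 and 51 among the miRNAs of the acetone arrays, and 63.5 (a tied rank) and 28 on the shikonin arrays. The group means were 10.62 ± 0.14 and 11.01 ± 0.86 (SD, n = 2 each), a difference of 0.40 (log2, SE 0.45, 95% interval -0.85 to 1.64, limma adjusted p = 0.736). The interval holds both lower and higher levels in shikonin-treated skin. The direction rests on shikonin replicate 2 and on the normalization: it was -0.24 without that array, -0.17 with no normalization, -0.24 when arrays were scaled by their 75th percentile over all miRNAs, and -0.31 in the deposited value table.

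The spots of miR-223 varied more than those of most miRNAs, with an SD of 0.49 and 0.77 (log2) on the acetone and 0.89 and 0.88 on the shikonin arrays, against array medians of 0.22 to 0.39. The same rows were bright on several arrays. The spot of 1 row read 6578 on acetone replicate 2 and 5873 on shikonin replicate 2, and another read 1568 and 1528. Compared row by row before normalization, the shikonin mean was lower in 4 and higher in 3 of 7 rows, by -0.33 to 0.13 (log2) with a median of -0.16. Over all miRNAs, the deviations of spots from their own miRNA's median correlated between arrays with r of 0.31 to 0.50 (6 array pairs that share the row order), a description without a test.

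miR-150, the marker of mature lymphocytes, was lower on both shikonin arrays relative to background and after quantile normalization. The median spot was 456 and 596 on the acetone arrays, 1.47 and 1.64 times background, and 396 and 460 on the shikonin arrays, 1.19 and 1.09 times background. As raw intensities the groups overlapped, and with no normalization the difference was -0.29 (log2, SE 0.34). Of its 8 spots, 7 and 8 exceeded the threshold with acetone alone and 1 and 2 with shikonin. The normalized log2 intensity was 9.08 on each acetone array and 8.73 and 8.61 on the shikonin arrays, and the groups did not overlap. This was also found for 26.8% of all miRNAs in the same direction.

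The difference of miR-150 was -0.41 (log2, SE 0.089, 95% interval -0.66 to -0.16). It did not pass in limma, with an adjusted p = 0.151 (unadjusted p = 0.0101). Because miR-150 was above background on neither shikonin array, its level there is only a bound. The observed mean of the acetone arrays was 1.12-fold over the normalized background threshold of the shikonin arrays. No sampling error was estimated for that ratio, and it sets no minimum for the difference in skin. The measured ratio was 1.33-fold, and 1.64-fold after normexp background correction (adjusted p = 0.132). Before normalization all 8 rows had a lower mean on the shikonin arrays, with differences of -0.55 to -0.016 (log2). In 1 of the 8 rows both shikonin arrays lay below both acetone arrays. The rows measure the same RNA samples and are not replicates of the treatment. Relative to the median of all miRNAs, miR-150 lay below 0 under each of 18 alternative settings, from -0.91 to -0.27. These are not separate checks. The filter on dim miRNAs, the intensity trend and the replicate blocks leave the difference itself unchanged. No normalization and both scalings by a percentile give the same relative value, -0.43.

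Of 3 red blood cell miRNAs, which follow the blood left in a sample, 0 were above background on all 4 arrays. The groups overlapped for miR-451 and miR-144, with differences of -0.14 and 0.017 (log2), whereas miR-486 lay higher on both shikonin arrays (means 8.76 and 8.91, difference 0.16, SE 0.11, limma adjusted p = 0.551). The summed normalized intensity of the 3 was 1278 to 1470 on the acetone and 1271 to 1474 on the shikonin arrays. These sums include background, and miR-144 was above it on 0 arrays, so a difference in blood content could go unseen in them. The epidermal and muscle pairs lay lower on both shikonin arrays. The summed intensity of miR-203 and miR-205 was 6103 and 7045 with acetone alone and 1412 and 3915 with shikonin, and that of miR-1 and miR-133a was 2903 and 5901 against 1503 and 2225 (lowest and highest array of each group). The fibroblast pair went in opposite directions, each without overlap of the groups. miR-199a-3p gave -1.57 (log2, SE 0.20, limma adjusted p = 0.125) and miR-214 gave 1.11 (SE 0.57, adjusted p = 0.451), and only their sum overlapped, at 4527 and 4614 against 3176 and 6757. The part of tissue composition in the lower miR-150 was not tested.

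**Figure D2:**
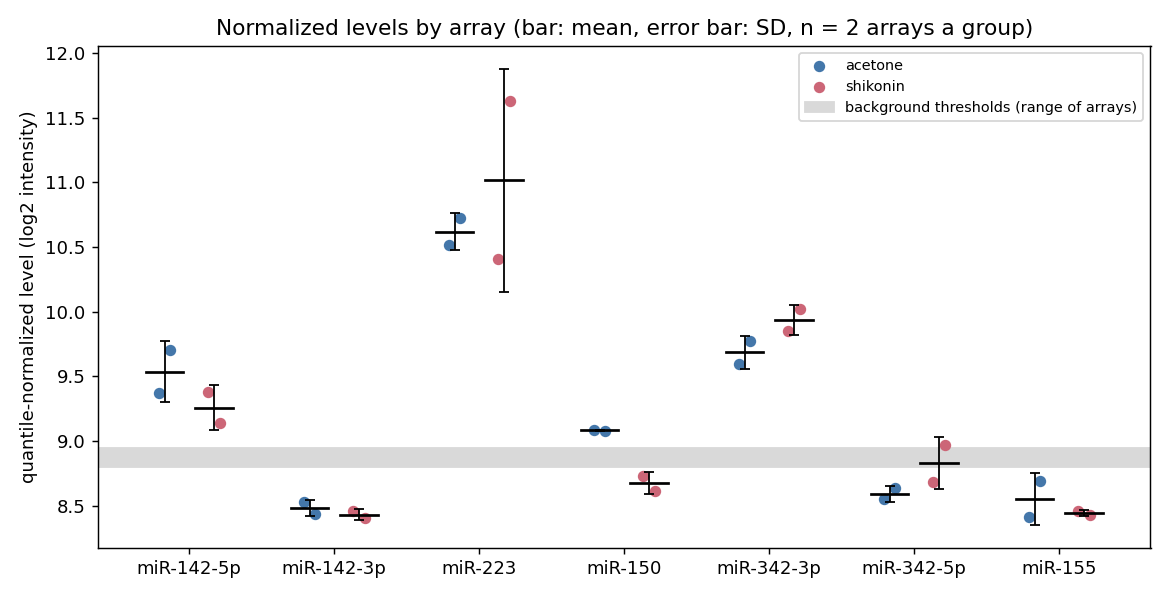
Quantile-normalized log2 intensity of the 7 leukocyte miRNAs on each acetone (blue) and shikonin (red) array, with mean and SD (n = 2 arrays a group) and the range of the background thresholds (grey band). The acetone arrays coincide for miR-150 at 9.08 and lie above both shikonin arrays, whereas the shikonin arrays of miR-223 lie at 10.40 and 11.62.

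The arms of miR-342 were counted here as lymphoid, though which cells of the skin held them was not tested. Both were higher on both shikonin arrays after quantile normalization, opposite to miR-150. In the deposited value table the groups overlapped for both arms. For miR-342-3p the median spot was 632 and 1072 with acetone alone and 816 and 1080 with shikonin, 2.04 and 2.95 against 2.46 and 2.56 times background. On that scale the groups overlapped. After quantile normalization they did not, with 9.59 and 9.77 (log2) in acetone-treated and 9.85 and 10.02 in shikonin-treated skin, as for 22.4% of all miRNAs in this direction. The means were 9.68 ± 0.13 and 9.93 ± 0.12 (SD, n = 2 each), and the difference was 0.25 (log2, SE 0.12, 95% interval -0.076 to 0.58, limma adjusted p = 0.415). Row by row before normalization, the shikonin mean was higher in 5 and lower in 2 of 7 rows, by -0.60 to 0.59 (log2).

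miR-342-5p was close to background. Its median spot was 320 and 408 with acetone alone and 384 and 576 with shikonin, so the groups overlapped on the raw scale. Only shikonin replicate 2 exceeded the threshold. The measured difference was 0.24 (log2, SE 0.13, 95% interval -0.13 to 0.60, adjusted p = 0.479), an interval that includes no change. Before normalization the mean of the shikonin arrays was higher in all 6 rows measured on the 4 arrays, by 0.28 to 0.68 (log2). With no normalization the median difference over all miRNAs was itself 0.14. In 1 of the 6 rows both shikonin arrays lay above both acetone arrays. Another row lies in the first eighth of the table, where shikonin replicate 2 was bright throughout. It read 1280 on that array against 384 to 480 on the other arrays. The difference was 0.25 without the spots of that eighth and 0.26 with the local median of each array removed.

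miR-155, which marks activated lymphocytes and macrophages, was not above background on any array. The median spot was 292 and 428 with acetone alone and 328 and 400 with shikonin, 0.942 to 1.18 times background. Single spots passed the threshold on the acetone arrays, 1 of 6 measured on each, and 0 of 7 on each shikonin array. The difference of -0.11 (log2, SE 0.13, 95% interval -0.47 to 0.25, adjusted p = 0.743) gives no direction, and induction or loss of miR-155 was not detectable at this signal.

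As a group the 7 members showed no common direction, with 3 higher and 4 lower and a median difference of -0.049 (log2), beside -0.0059 over all 710 miRNAs. The 3 members above background on all 4 arrays had differences of -0.28, 0.25 and 0.40 and a median of 0.25, beside -0.070 over the 153 such miRNAs. The middle 50% of those 153 ran from -0.81 to 0.61 and contained all 3. The groups did not overlap for 3 members (miR-342-3p and miR-342-5p higher, miR-150 lower), and for 49.2% of all miRNAs.

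**Figure D3:**
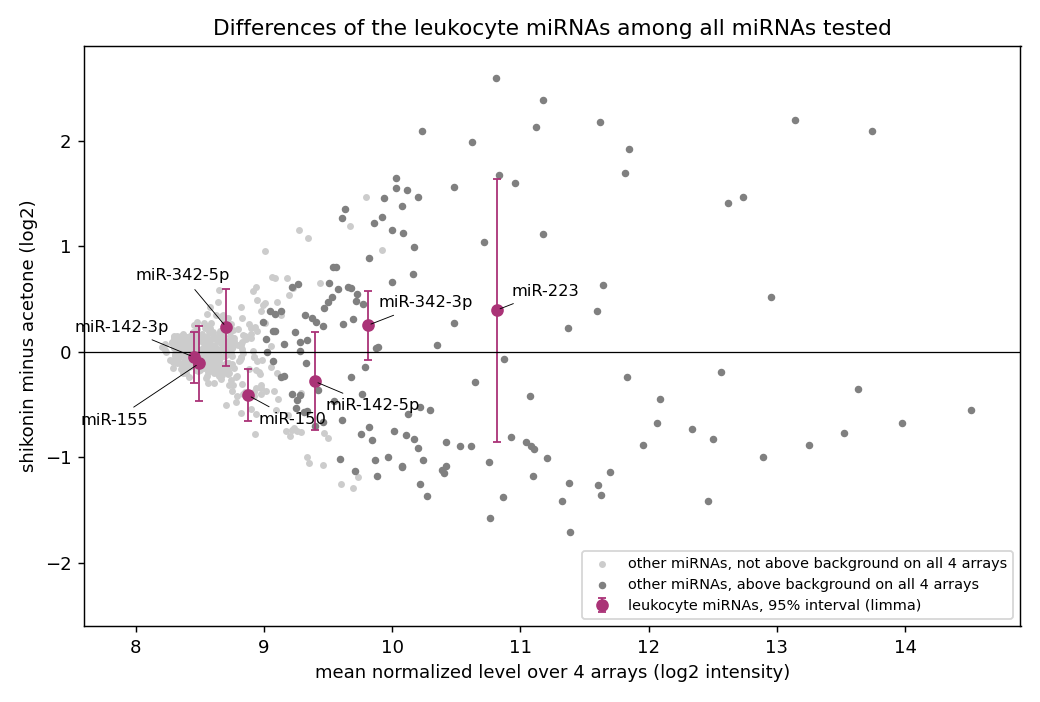
Difference between shikonin-treated and acetone-treated skin (log2) against the mean normalized level of each miRNA (log2 intensity) for all miRNAs tested, with the 7 leukocyte miRNAs in purple and their 95% intervals from limma. The members lie between -0.41 and 0.40, inside the range of the other miRNAs, and the interval of miR-223 is the widest of the 7.

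Myeloid and lymphoid markers were compared within each array, as the log2 level of miR-223 minus that of miR-150, and only the change of this quantity between groups is read. It was 1.43 and 1.64 with acetone alone and 1.67 and 3.01 with shikonin, so shikonin replicate 1 lay just above the controls and shikonin replicate 2 far above. The group means were 1.54 ± 0.15 and 2.34 ± 0.95 (SD, n = 2 each), a difference of 0.81 (log2), with p = 0.333 in the two-sided exact permutation test, the smallest p that 2 against 2 arrays allow. Without shikonin replicate 2 the difference was 0.13, and with no normalization it was 0.12, where the groups overlapped. Since miR-150 was at background on the shikonin arrays, its part of the difference is a bound there. The result also depended on which of the miRNAs counted as lymphoid was taken. Set against miR-342-3p, which was above background on all 4 arrays, miR-223 was at 0.92 and 0.95 with acetone alone and at 0.55 and 1.61 with shikonin. The groups overlapped, and the difference was 0.14 (log2, p = 1 in the two-sided exact permutation test, 2 arrays a group). It turned to -0.43 without shikonin replicate 2 and to -0.36 with no normalization.

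**Figure D4:**
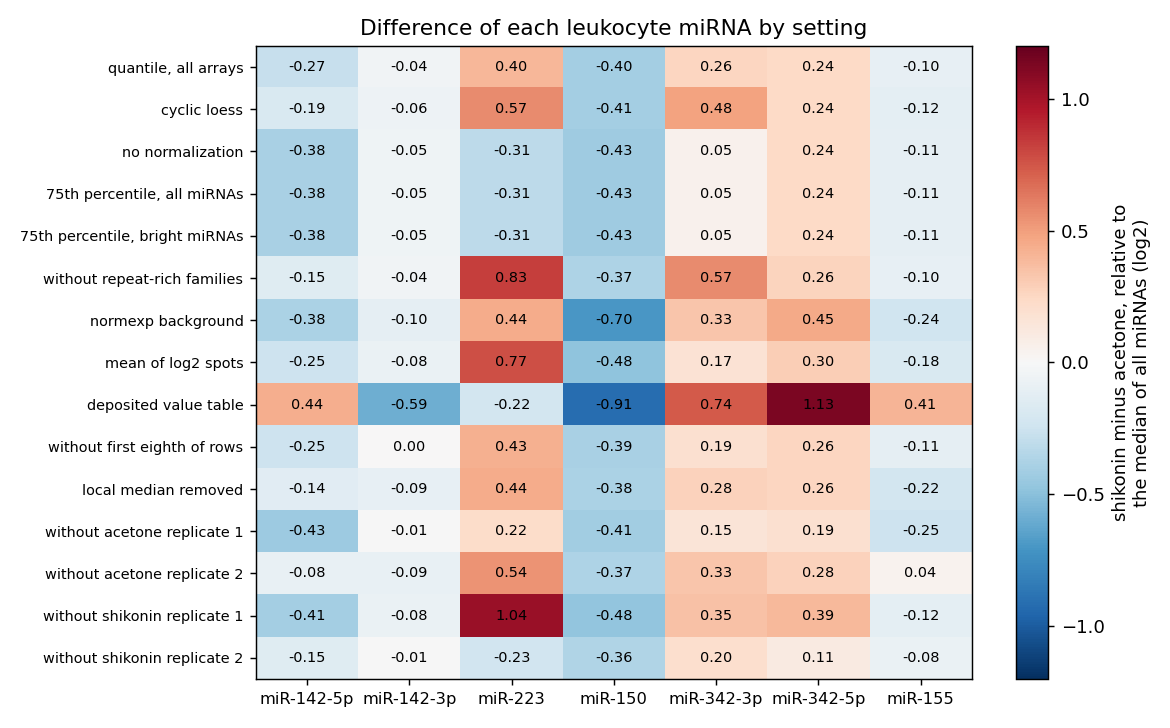
Difference between shikonin-treated and acetone-treated skin (log2) of each leukocyte miRNA, relative to the median of all miRNAs, under the main setting (top row) and 14 alternatives, in color and as printed value. miR-150 is below 0 and both arms of miR-342 are above 0 in every row, whereas miR-223 changes sign, from -0.31 to 1.04.

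Other miRNAs with a part in leukocytes or in inflamed tissue were taken as a wider list, 30 of 32 found on the array. None of the 30 passed, and 13 had an unadjusted limma p under 0.05, against 17.6% of all miRNAs and 74 of the 153 above background on all 4 arrays. Of the 30, 22 were lower and 8 higher, beside 367 lower and 343 higher of all 710 miRNAs. The median difference of the 30 was -0.24 (log2), beside -0.0059 over all miRNAs. Only 9 of them were above background on all 4 arrays, with a median of -0.89, beside -0.070 over the 153. Most of these 9 are also made by skin cells outside the blood lineage. The 9 regulators of innate activation were mixed, with 5 higher and 4 lower and a median of 0.033 (log2). The groups did not overlap for 3 higher and 3 lower ones, beside 49.2% of all miRNAs. Only 3 of the 9 were above background on all 4 arrays, with a median of -0.70. Of these 3, miR-21, which is raised in many inflamed tissues, gave -0.42 (SE 0.37, adjusted p = 0.651). The lowest, miR-125a-5p, gave -0.75 (SE 0.28, adjusted p = 0.299).

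In the list of lymphocyte development all 11 miRNAs were lower, 10 of them without overlap of the groups, and 4 were above background on all 4 arrays. Of all 710 miRNAs 367 were lower, and of the 153 bright ones 78. Both shikonin arrays lay below both acetone arrays for 26.8% of all miRNAs and for 65 of the 153 bright ones. The counts of the list are given beside these as a description. Most of the list belongs to the miR-17-92 cluster or the miR-181 family, so its members are not separate observations. miR-17, miR-19a and miR-20a, of the miR-17-92 cluster that promotes proliferation in many cell types, gave -0.89 (SE 0.28), -0.36 (SE 0.10) and -1.09 (SE 0.19), with adjusted p of 0.240, 0.188 and 0.134. For myeloid differentiation, miR-27a was the 1 bright miRNA of 3, at -1.13 (SE 0.20, adjusted p = 0.134). The endothelial miR-126-3p gave -1.17 (SE 0.24, adjusted p = 0.146). The mast cell pair miR-221 and miR-222 had differences of -0.16 and -0.24 and was not above background on all 4 arrays.

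The miRNAs whose 4 normalized log2 values, each centred on its own mean, came closest to those of a bright member were sought among the 152 others above background on all 4 arrays. Nearest to miR-223 were miR-15b and miR-574-5p, with root mean square differences of 0.080 and 0.096 (log2). Both were likewise brightest on shikonin replicate 2, at 12.40 and 13.91, against 11.19 and 12.53 on shikonin replicate 1. Nearest to miR-342-3p were miR-1186 and miR-2138 (0.066 and 0.068), and nearest to miR-142-5p were miR-19a and miR-690 (0.10 and 0.18). With 4 arrays such likeness is a description only.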

How the data were processed

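MicroRNA levels were measured on 4 arrays, grouped by the treatment in their labels. The spot table that the authors deposited gives linear spot intensities, 8 spots per miRNA and array, not normalized and without background columns. Empty spots (239 to 398 of 5680 per array) were left out. In their value table the authors deposited a single log2 value for each miRNA on each array. The methods name quantile normalization, but its columns have medians of 5.75 to 6.43 and their exact scale is unknown, so it served as an alternative.

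The median of the spots was taken per miRNA and array, quantile normalized between arrays, floored at 1 and put on the log2 scale. Equal ranks on 2 arrays become equal values, with an SD of 0. Shikonin was compared with acetone over all 710 miRNAs, without a filter, with the moderated two-sided test of limma 3.58.1 in R 4.3.3 and p-values adjusted by Benjamini-Hochberg. The code was tested on simulated data. Alternatives were other normalizations and spot summaries, normexp background correction (offset 50), a filter on dim miRNAs, an intensity trend, a replicate block and leaving out each array. The position corrections and a crossed block were added after seeing the data. The members, lists and rules were chosen with earlier results of these data known.

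Named miRNAs were the 7 members, up to 3 bright miRNAs for each role of the wider list (the brightest, the highest and the lowest difference), and the 2 nearest in pattern to each bright member. The mast cell, red blood cell and tissue marker miRNAs were named beside them to give their lists. Whether replicate numbers pair the arrays was checked by the correlation of same-numbered deviations from the group means.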

Additional observations from a re-analysis of the deposited data

How the results depend on the processing

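Signal over background is the main limit: 4 of the 7 members were not above background on all 4 arrays. The miR-150 difference kept its sign under 17 of 18 alternatives, that of both arms of miR-342 under all that could be run (18 for miR-342-3p, 17 for miR-342-5p), and that of miR-223 under 14 of 18. Filter, trend and blocks cannot change a difference itself, and the filter left out 3 members. They do change the SE, which limma moderates. For miR-150 it was 0.089 in the main setting, 0.21 with the filter and 0.15 with the trend. For miR-342-3p it was 0.12, 0.22 and 0.40. With the trend the SE fell for miR-155 (0.13 to 0.097) and miR-342-5p (0.13 to 0.12). Scaling over bright miRNAs moved the median of all miRNAs to 0.82 (log2), so the values in that setting are to be read against it: 0.77 for miR-142-3p, 0.43 for miR-142-5p, 0.39 for miR-150 and 0.71 for miR-155, with a median of 0.71 over the 7 and of 0.51 over the 3 bright members. There 3 members passed in limma (miR-342-5p at 1.06, miR-342-3p at 0.87 and miR-142-3p, with a lowest adjusted p = 0.0208), as did 489 miRNAs in all. With no normalization the median of all miRNAs was 0.14 (log2), so values there are likewise to be read against it. In that setting miR-142-3p was at 0.088, miR-155 at 0.035 and miR-223 at -0.17, the median of the bright members was -0.17, and 83 miRNAs passed. Scaling over all miRNAs gave 0.020 for miR-142-3p and -0.24 for miR-223 and for the bright median, beside a median of 0.072 over all miRNAs. The deposited value table gave 0.35 for miR-142-5p, 0.32 for miR-155 and for the median of the 7, and -0.31 for miR-223, with 0 miRNAs past the threshold (limma, 23 at an unadjusted p under 0.05). The bright median was 0.48 with cyclic loess and 0.56 when the repeat-rich families (miR-466 and its like) were left out of the normalization.

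The number of miRNAs past the threshold in limma was 2, but 0 with cyclic loess (115 at an unadjusted p under 0.05), with the replicate block (116) or without the first eighth of the rows (124), 1 with the mean of log2 spots or the filter, and 38 with the intensity trend. With any 1 array left out it was 0 (63 to 101 unadjusted). The causes were not tested. Leaving out 1 array gave -0.25 to 0.031 for miR-155 (0.031 without acetone replicate 2), -0.24 to 1.03 for miR-223 (-0.24 without shikonin replicate 2) and -0.16 to 0.35 for the bright median (-0.16 without shikonin replicate 2). It moved miR-223 minus miR-150 between 0.13 and 1.51, the lower value without shikonin replicate 2 and the higher without shikonin replicate 1. miR-142-5p was at -0.092 without acetone replicate 2. miR-223 minus miR-342-3p, added after seeing the data, ran from -0.43 (without shikonin replicate 2) to 0.69 (without shikonin replicate 1), and was -0.36 with no normalization and with either scaling and -0.96 in the value table. The replicate numbers were not taken to pair the arrays: no source ties a number to a batch, and same-numbered deviations correlated at -0.28 over all miRNAs, which 2 pairs cannot settle. Both replicate 2 arrays were brighter (median spot 416 and 488, against 352 and 376), and only on them did the value table keep the order of the raw medians (Spearman 1, against 0.914 and 0.921). A crossed block, chosen after seeing the data, gave 35 calls. Neither block called a member.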
